A study of Mus musculus with 20 samples.

Results

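The mitochondrial ribosomal protein genes were defined as all genes annotated as protein coding whose symbol is Mrpl or Mrps followed by a number. This rule used no measured value. It takes 77 of the 39174 genes in the files, of which 22736 are protein coding. By symbol 47 are Mrpl and 30 are Mrps genes. Mrps30 and Mrps18a are part of the large subunit despite their names and were counted there. Mrps36 is known as a subunit of the 2-oxoglutarate dehydrogenase complex, and it and its copy Mrps36-ps1 were counted with neither subunit. This leaves 49 large subunit and 26 small subunit genes.

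The mitochondrial ribosome translates the few mRNAs of the mitochondrial genome, all of which encode subunits of the oxidative phosphorylation complexes. Its rRNAs are made inside the organelle, whereas its proteins are encoded in the nucleus, translated in the cytosol and imported. Motoneuron axons hold many mitochondria far from the nucleus. Where axons are cultured apart from cell bodies, mRNAs for mitochondrial proteins can be measured on each side.

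The RNA came from primary motoneurons of CD-1 mouse embryos at E12.5, isolated from spinal cord, enriched on dishes coated with an anti-p75 antibody and grown for 7 d in microfluidic chambers that separate axons from the somatodendritic side. Control cultures carried an empty lentiviral expression vector and Tdp-43 knockdown cultures a lentivirus with 1 shRNA against the mRNA of Tdp-43 (gene symbol Tardbp), with no second shRNA and no non-targeting shRNA among the libraries. The control libraries are titled GFP, and the paper states that its lentiviral constructs express GFP. According to the paper the control data had been described earlier, and both kinds of culture were handled in parallel. The labels name no batch. Total RNA of each compartment was pre-amplified and sequenced, which gave 4 control and 6 knockdown libraries for the somatodendritic and as many for the axonal compartment. The labels name no embryo or culture, so that p-values measure the spread between these libraries, which may in part be technical.

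Values are FPKM, fragments normalised to transcript length and to the number of mapped fragments. Read counts are not given, and the depth was taken from the deposited interval of each FPKM value. Relative to the deepest library, the depth was 0.612 to 1 for control and 0.143 to 0.698 for knockdown libraries on the somatodendritic side, and 0.530 to 0.674 for control and 0.103 to 0.760 for knockdown libraries of axons. Tardbp was at 19.0 to 30.8 FPKM in somatodendritic control and 0 to 8.54 FPKM in somatodendritic knockdown libraries. In axons it was at 13.4 to 32.3 FPKM in control and 1.21 to 33.2 FPKM in knockdown libraries, and the library labelled axonal knockdown 1 was the one at 33.2. Mitochondrially encoded RNA made up 8.88 to 15% of FPKM in 15 libraries. The other 5 were axonal, with control 4 at 33.0% and knockdown 2, 4, 5 and 6 at 38.5 to 47.7%. Of the 7 motoneuron markers in the files, Chat, Mnx1 and Isl2 were listed at 0 in all 20 libraries and Slc5a7 in 19, while Isl1, Ngfr and Prph were detected. Their summed FPKM was 2.13 to 7.89 in control and 1.53 to 24.8 in knockdown libraries of the somatodendritic side, and 0 to 18.2 in control and 0 to 4.25 in knockdown libraries of axons.

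The promoters of the genes were searched for short sequences. The files of RefSeq on GRCm38.p6 held a promoter, 250 bases before to 50 after the start, for 67 of the 77 genes. Both strands were searched for letters of factors with known roles at such genes, namely the palindrome of nuclear respiratory factor 1 (NRF1), the same letters with any base at the fifth position, CCGGAAG for ETS factors and the letters of YY1. The NRF1 and YY1 letters are those in capitals in the windows below. The NRF1 palindrome was in 3 of the 67, or 4.48%, against 1.07% of the 27025 genes in the table. The looser form, which includes it, was in 12 (17.9% against 5.19%), CCGGAAG in 24 (35.8% against 9.93%) and the YY1 letters in 5 (7.46% against 0.995%). These are matches of letters, with no test, and no binding was measured.

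The first 3 windows show the genes that hold the full palindrome, and the other 5 show genes that are described below, 30 bases each and 5′ to 3′ on the gene's own strand, with the matched letters, or their reverse complement, in capitals. They lie at chr13:14613105-14613134, chr16:84735350-84735379, chr3:94443298-94443327, chr11:120484546-120484575, chr2:130563745-130563774, chr1:42851218-42851247, chr7:78783012-78783041 and chr17:46111005-46111034, in this order. The first 6 hold the NRF1 letters and the last 2 the YY1 letters.
Mrpl32: tttgacccttGCGCATGCGCaagaggggcc
Mrpl39: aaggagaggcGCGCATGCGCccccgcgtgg
Mrpl9: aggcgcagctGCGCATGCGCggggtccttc
Mrpl12: tattgtctccGCGCCTGCGCgtcgcaccgc
Mrps26: tccgggccggGCGCAGGCGCaggcgctggc
Mrps9: tgggaggtctGCGCCTGCGCagtctccagg
Mrps11: cctacgggcgCCGCCATCTTtctgtcttcc
Mrps18a: ggtgcgttccAAGATGGCGGccctcagggc

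The genes are scattered over 17 chromosomes, and many start next to another gene. Of the 75 that GENCODE M21 lists as protein coding, 32 have a coding gene that starts within 1000 bases on the opposite strand, or 42.7%, against 11% of the 21223 coding genes in the files. In 21 the transcribed region overlaps a coding gene on the other strand. One such pair lies within the family: Mrpl46 (chr7:78775236-78783531, minus strand) and Mrps11 (chr7:78783119-78792989, plus strand) overlap head to head. Whether the counting used strand is not given in the sources used here, so reads of such partners may not be told apart. Mrps36 and Mrps36-ps1 are near-identical copies, and the split of reads between them is uncertain. The genes are also short. Their median exonic length was 2143 bases against 4669 bases for other coding genes tested, and a short gene gives fewer fragments at the same FPKM.

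Nearly all of these genes were detected on the somatodendritic side of control motoneurons. Of the 77, 73 were above 0 in each of the 4 libraries, and the median gene had a mean of 13.3 FPKM, with a range from 1.24 to 66.9 FPKM. The highest was Mrps21, a homolog of bacterial S21, with 40.6, 91.2, 75.5 and 60.2 FPKM (66.9 ± 21.6, SD, n = 4). Mrpl42, which is found in mitochondrial ribosomes only, was next at 61.2 ± 11.1 FPKM (SD, n = 4), followed by Mrpl17 at 50.3 ± 19.2, Mrps18a at 41.8 ± 17.9 and Mrpl41 at 40.0 ± 3.07. Each of these 5 lies within 1 SD of a neighbour in this order, so that their order is not resolved. The 5 highest genes made up 20.7% of the summed FPKM of the family.

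The lowest genes were near the limit of what these libraries can measure. Mrpl47 was at 1.24 ± 0.834 FPKM (SD, n = 4), Mrps16 at 1.43 ± 1.69, Mrpl1 at 2.85 ± 1.68, Mrpl44 at 3.71 ± 1.09 and Mrps28 at 3.81 ± 1.41. Mrps16 was listed at 0 in 2 of these 4 libraries. The GTPase-binding stalk, through which translation factors act, was measured at different levels of its parts, with Mrpl10 at 21.9 ± 6.44, Mrpl12 at 11.3 ± 4.84 and Mrpl11 at 3.82 ± 1.65 FPKM (SD, n = 4).

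The order of the genes was compared between compartments. Across the 77 genes, mean FPKM in axonal and somatodendritic control libraries had a Spearman correlation of 0.80, which is over genes that share libraries and is a description only. Mrps21, Mrpl42 and Mrpl17 were the 3 highest genes in both compartments of control motoneurons, at 44.2 ± 14, 32 ± 10.4 and 29 ± 8.90 FPKM in axons (SD, n = 4). Zeros were more common in axons, with 56 of 77 genes above 0 in every control library. The heat map of all genes and libraries shows these levels.

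**Figure D1:**
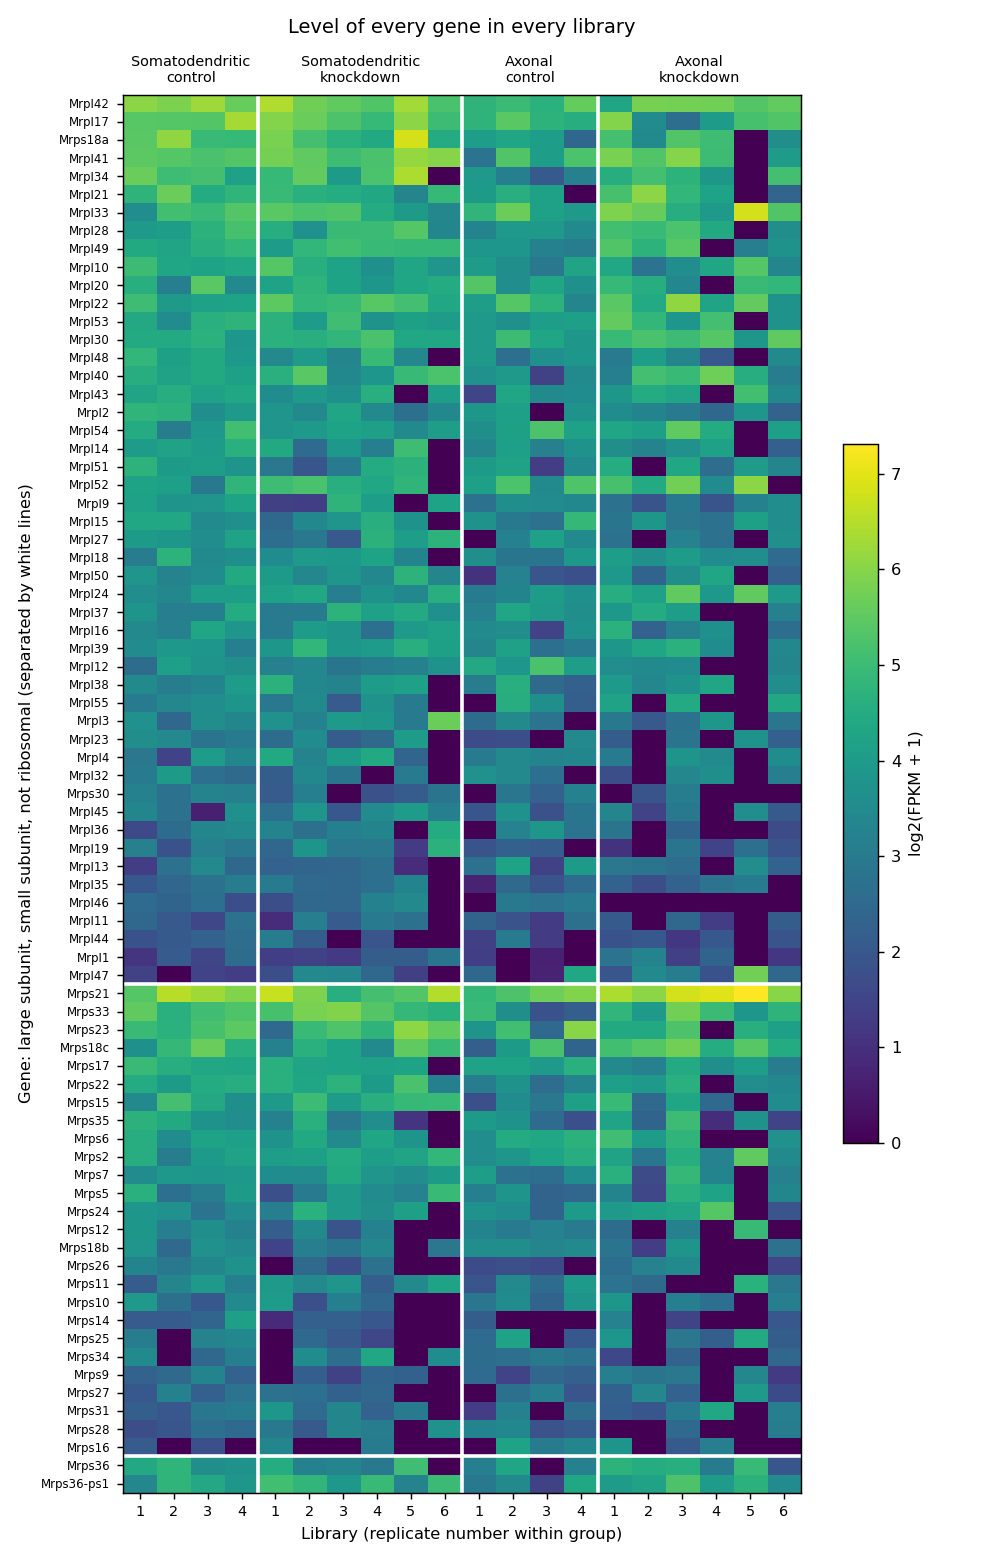
Level of each of the 77 genes (rows) in each of the 20 libraries (columns, by group and replicate number) as log2(FPKM + 1), ordered within the large subunit, the small subunit and the 2 genes of neither by mean level in somatodendritic control libraries. Somatodendritic knockdown 6, with 32 genes listed at 0, and axonal knockdown 5, with 39, are the darkest columns.

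The number of genes listed at 0 differed widely between libraries. On the somatodendritic side 0 to 4 of the 77 were listed at 0 per control and 1 to 32 per knockdown library, and in axons 3 to 8 per control and 2 to 39 per knockdown library. The 5 libraries with 14 to 39 genes at 0 are those with a relative depth of 0.103 to 0.316, and the other 15, at a depth of 0.526 to 1, had 0 to 8 and did not order by depth. In axonal knockdown only 21 genes were above 0 in all 6 libraries. The median gene of the family had between 0 and 5.67 implied fragments per library, from axonal knockdown 5 to somatodendritic control 3. Among genes with a mean of at least 1 implied fragment, the median coefficient of variation between replicates was 38.2% for control and 51.5% for knockdown libraries on the somatodendritic side, and 57.1% for control and 76.1% for knockdown libraries of axons. The inverse square root of the mean implied fragments of the same genes had a median of 47.1, 55.8, 65.2 and 51.4% in this order. Implied fragments also hold uncertainty of assignment, so this is not the spread from counting alone. It was above the observed spread in all groups but axonal knockdown.

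The summed level gives the family as a whole. The 77 genes summed to 1263, 1209, 1251 and 1298 FPKM in somatodendritic control libraries. In axonal control libraries they summed to 736, 1095, 731 and 930 FPKM. The lowest, median and highest sum was 1019, 1225 and 1389 FPKM in somatodendritic knockdown and 813, 1061 and 1515 FPKM in axonal knockdown libraries. Axonal controls thus all lay below somatodendritic controls, with a mean of 69.6% of theirs, whereas the sums of control and knockdown libraries overlapped in both compartments.

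A mean sum of 96.5% of control was found in somatodendritic and of 128% in axonal knockdown libraries. These ratios turn on what they are set against. After scaling all 20 libraries by the median of ratios they were 82.5 and 85.9%, and the axonal control libraries reached 104% of the somatodendritic ones. As a share of the FPKM of nuclear protein-coding genes, the family made up 0.538 to 0.556% in somatodendritic control and 0.415 to 0.494% in somatodendritic knockdown libraries, which do not overlap. Over these libraries the FPKM of all nuclear protein-coding genes, the denominator of this share, had a mean of 229387 in control and 266667 in knockdown. In axons the share was 0.420 to 0.607% in control and 0.380 to 0.535% in knockdown libraries, with overlap. In such bulk samples fewer cells that express a gene and less of its RNA per cell cannot be told apart.

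**Figure D2:**
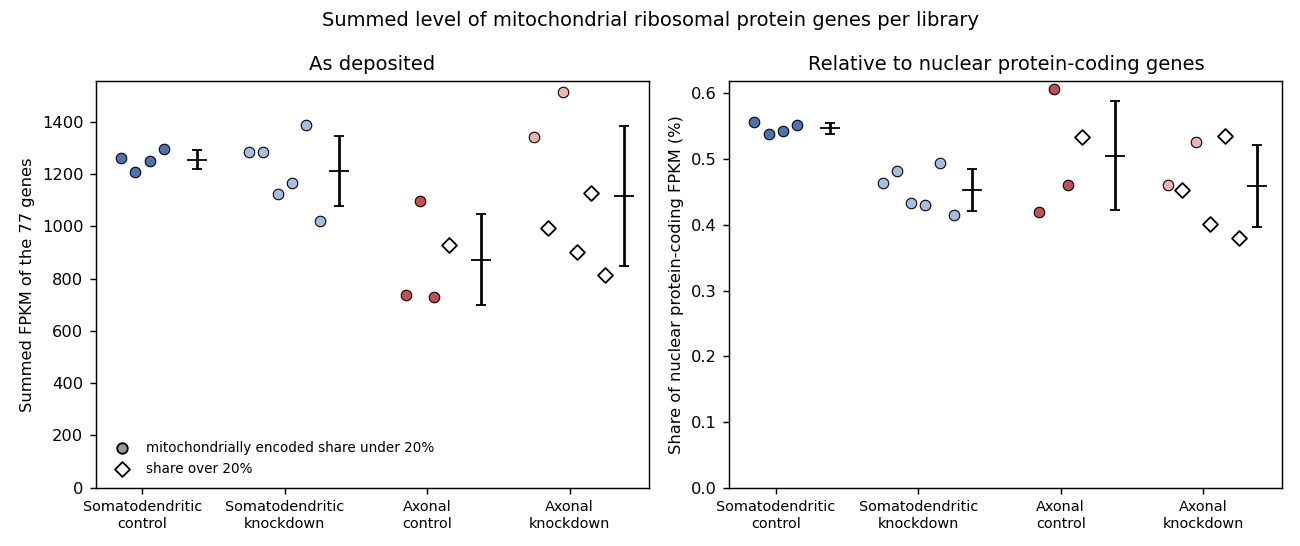
Summed FPKM of the 77 genes per library (left) and the same sum in percent of the FPKM of nuclear protein-coding genes (right), by group. Points are libraries, open diamonds are libraries whose mitochondrially encoded share is over 20%, and bars are mean ± SD. The 4 axonal control sums lie below the 4 somatodendritic control sums on the left, and on the right the somatodendritic knockdown shares lie below the control shares.

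Large and small subunit genes were compared within libraries. The ratio of their summed FPKM was 1.90 to 2.16 in control and 1.87 to 2.84 in knockdown libraries of the somatodendritic side, and 1.68 to 2.32 in control and 1.56 to 2.86 in knockdown libraries of axons. All 4 ranges overlap.

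Does Tdp-43 knockdown alter the mRNAs of the mitochondrial ribosome in the somatodendritic compartment? No gene of the family was higher and 7 of the 77 were lower at an unadjusted p under 0.05, which is 9.09%. Over all 13734 genes tested, 4.61% were higher and 9.3% lower by the same rule, so the share of lower genes in the family is near the background. Leaving out 1 library gave 4 to 10 genes, with 4 without control 3, where 10.8% of all genes were called in either direction. None passed an adjusted p under 0.05 in limma, against 0.976% of all genes, though Mrps26 did with a pseudocount of 5. Of the 7, 5 encode small subunit proteins (Mrps26, Mrps12, Mrps14, Mrps9 and Mrps35) and 2 large subunit proteins (Mrpl2 and Mrps30). In 10 fits that each left out 1 library an unadjusted p under 0.05 was kept in all 10 for Mrps26, in 9 for Mrps12 and Mrps14, 8 for Mrpl2, 7 for Mrps9, 6 for Mrps30 and 5 for Mrps35. Under the other alternatives it was kept in 10 of 10 for Mrps26, 9 of 10 for Mrps12, 7 of 9 for Mrps14 and Mrps9, 6 of 10 for Mrpl2 and Mrps30, and 5 of 10 for Mrps35.

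Mrps26, a small subunit protein found in mitochondrial ribosomes only, had the smallest p of the family here. It lies at chr2:130563742-130568695 on GRCm38. It was measured at 8.86, 6.53, 9.31 and 12.1 FPKM in control libraries, and at 0 in 3 and at 2.35, 4.71 and 5.82 FPKM in the other knockdown libraries. All 6 knockdown libraries were below all 4 controls. The log2 change was -2.28 ± 0.61 (SE; limma adjusted p = 0.102), on the log2(scaled FPKM + 1) scale, which understates the change of low genes. At this level the control libraries hold 2.44 to 6.41 implied fragments.

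Mrps12, the homolog of bacterial S12 at the decoding centre, was at 13.7, 7.70, 11.5 and 8.29 FPKM in controls. In knockdown libraries it ranged from 0 to 10.3 with a median of 3.17 FPKM, so that the groups overlap, and its log2 change was -1.82 ± 0.67 (SE; limma adjusted p = 0.242). Mrps14, a protein of the small subunit's head, was at 3.30, 3.36, 4.25 and 16.7 FPKM in controls and at 0 to 3.76 FPKM in knockdown libraries (log2 change -1.60, limma adjusted p = 0.263). Control 4 stands far above the other 3. Mrps9, a homolog of bacterial S9, was at 3.93, 4.80, 8.81 and 3.87 FPKM in controls and 0 to 4.21 FPKM in knockdown libraries (log2 change -1.38, limma adjusted p = 0.291). For Mrps14 and Mrps9 the groups overlap as deposited and do not after scaling. For Mrps14 the lowest control and the highest knockdown value are nearly equal after scaling. With Mrps26 these make 3 genes, or 3.9% of the family, that were lower without overlap, beside 3.63% of all genes. Mrpl2, a homolog of bacterial L2 near the peptidyl transferase centre, was at 26.5, 24.7, 11.4 and 14.1 FPKM in controls and 5.47 to 19.1 FPKM in knockdown libraries (log2 change -0.92, limma adjusted p = 0.267).

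As a whole the family lay lower on the log scale, and so did genes at large. The median log2 change of the 77 genes was -0.38 and 60 of them were below 0, or 77.9%. Over all genes tested the median was -0.14 and 59.5% were below 0. The knockdown libraries were shallower and listed more genes at 0, which moves with this shift. With only the libraries at a relative depth of at least 0.5 the medians were -0.21 for the family and -0.04 for all genes. With FPKM as deposited they were -0.20 and 0.04, and 2 genes were higher and 3 lower at an unadjusted p under 0.05, beside 9.27 and 5.44% of all genes. Of 5 astroglia markers 2 were higher at an unadjusted p under 0.05, with sums of 123 to 199 FPKM in control and 145 to 348 FPKM in knockdown libraries. All 3 markers of dividing cells were below 0, with a median of -0.81 and 1 lower at an unadjusted p under 0.05, and sums of 18.1 to 36.3 and 0.955 to 27.9 FPKM. No tested marker of motoneurons, oligodendroglia and Schwann cells, fibroblasts or microglia had an unadjusted p under 0.05. The part of depth, scaling and other cells in the shift was not tested.

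In axons the question is whether knockdown changes the mRNAs that reach the axonal compartment. No gene of the family was higher and 6 of 77, or 7.79%, were lower at an unadjusted p under 0.05. The background over 13847 genes was 2.15% higher and 6.56% lower. None passed an adjusted p under 0.05 in limma, against 0.404% of all genes, though Mrpl46 did without axonal control 1, and Mrpl46 and Mrpl12 did with all 20 libraries in 1 fit. Leaving out 1 library gave 6 to 12 genes, with 12 without control 1, where 6.43% of all genes were called in either direction, and 11 without knockdown 5, where 9.92% were. The 6 are Mrpl46 and Mrpl12 of the large and Mrps34, Mrps18b, Mrps28 and Mrps17 of the small subunit. None of them is among the 7 of the somatodendritic compartment, and the genes were not tested for overlap.

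Mrpl46, which is found in mitochondrial ribosomes only, was listed at 0 in all 6 axonal knockdown libraries. In axonal controls it was at 0, 6.82, 5.83 and 7.06 FPKM, so that 1 control matches the knockdown libraries. The 3 control values rest on 1.45 to 2.02 implied fragments. Its log2 change was -2.36 ± 0.67 (SE; limma adjusted p = 0.235). On the somatodendritic side it was at 4.18 ± 1.32 FPKM in control (SD, n = 4) and at 4.86 ± 3.63 FPKM in knockdown libraries (SD, n = 6). Mrps11, its overlapping neighbour, had a log2 change of -1.17 in axons that did not pass the test (limma adjusted p = 0.728). With only the 5 axonal libraries of a low mitochondrially encoded share, whose 2 knockdown libraries are knockdown 3 and knockdown 1, the one with Tardbp at 33.2 FPKM, the log2 change of Mrpl46 was -2.07 and no longer had an unadjusted p under 0.05.

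Mrpl12, at chr11:120484613-120489065, is the stalk protein to which translation factors bind and is also known to bind the mitochondrial RNA polymerase. It was at 20.1, 13.4, 35.9 and 15.9 FPKM in axonal control libraries. In axonal knockdown libraries it was at 0 in 2 and at 8.99 to 11.1 FPKM in the other 4, so that every knockdown library was below every control. The log2 change was -2.51 ± 0.77 (SE; limma adjusted p = 0.279). It rests on 4.43 to 19.5 implied fragments in controls. With the 3 control and 2 knockdown libraries of a low mitochondrially encoded share the log2 change was -1.62, and at a relative depth of at least 0.5 it was -1.46, both with an unadjusted p under 0.05. Axonal knockdown 1, with Tardbp at 33.2 FPKM, is in both of these sets.

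Mrps34, found in mitochondrial ribosomes only, was at 5.02, 5.50, 6.71 and 5.70 FPKM in axonal controls and at 0 in 3 and 1.98 to 4.28 FPKM in 3 knockdown libraries (log2 change -2.07, limma adjusted p = 0.293). The groups do not overlap. Mrps18b is 1 of 3 mammalian homologs of bacterial S18. It was at 11, 11.3, 9 and 10.3 FPKM in axonal controls and 0 to 12.8 FPKM in knockdown libraries (log2 change -2.15, limma adjusted p = 0.322). Mrps28, a small subunit protein with a bacterial homolog, was at 8.83, 9.67, 2.62 and 3.34 FPKM in axonal controls and at 0 in 4 and 4.67 and 7.54 FPKM in the other knockdown libraries, so that the groups overlap (log2 change -2.06, limma adjusted p = 0.417). Mrps17, a homolog of bacterial S17, was at 17.5, 17.8, 14.3 and 23.7 FPKM in controls and 7.34 to 21.3 FPKM in knockdown libraries (log2 change -1.10, limma adjusted p = 0.443). For Mrps18b and Mrps17 the groups overlap as deposited and do not overlap after scaling. With the 5 axonal libraries of a low mitochondrially encoded share neither Mrps34 (log2 change -1.37) nor Mrps18b (-0.87) had an unadjusted p under 0.05. The knockdown libraries in this set are 3 and 1, the latter with Tardbp at 33.2 FPKM. Lower values without overlap were thus found for 4 genes, or 5.19%, beside 2.07% of all genes tested.

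The median log2 change of the family in axons was -0.50, with 58 of 77 genes below 0, against -0.18 and 59.5% for all genes. As deposited the medians were -0.04 and 0.23, and 5 genes were higher and 5 lower, beside 7.16 and 2.67% of all genes. The family thus lies below the median of all genes with either scaling. At a relative depth of at least 0.5 the medians were -0.12 and 0.04. With only the 5 axonal libraries of a low mitochondrially encoded share they were 0.07 and 0.06. There 1 of the 2 knockdown libraries left is knockdown 1, with Tardbp at 33.2 FPKM. Without knockdown 1 the medians of the axonal comparison were -0.61 and -0.21. Malat1, a nuclear RNA, was at 382 ± 75.9 FPKM in axonal control (SD, n = 4) and 1391 ± 295 FPKM in axonal knockdown libraries (SD, n = 6), a log2 change of 1.33 (limma adjusted p = 0.0731). Of the markers of other cells tested in this comparison, 1 of 3 of dividing cells was lower at an unadjusted p under 0.05, with sums of 36.8 to 58.3 FPKM in control and 8.65 to 117 FPKM in knockdown libraries, and none of motoneurons, astroglia, oligodendroglia and Schwann cells, fibroblasts or microglia had an unadjusted p under 0.05. The share of somatodendritic or other cells in the axonal samples was not tested.

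**Figure D3:**
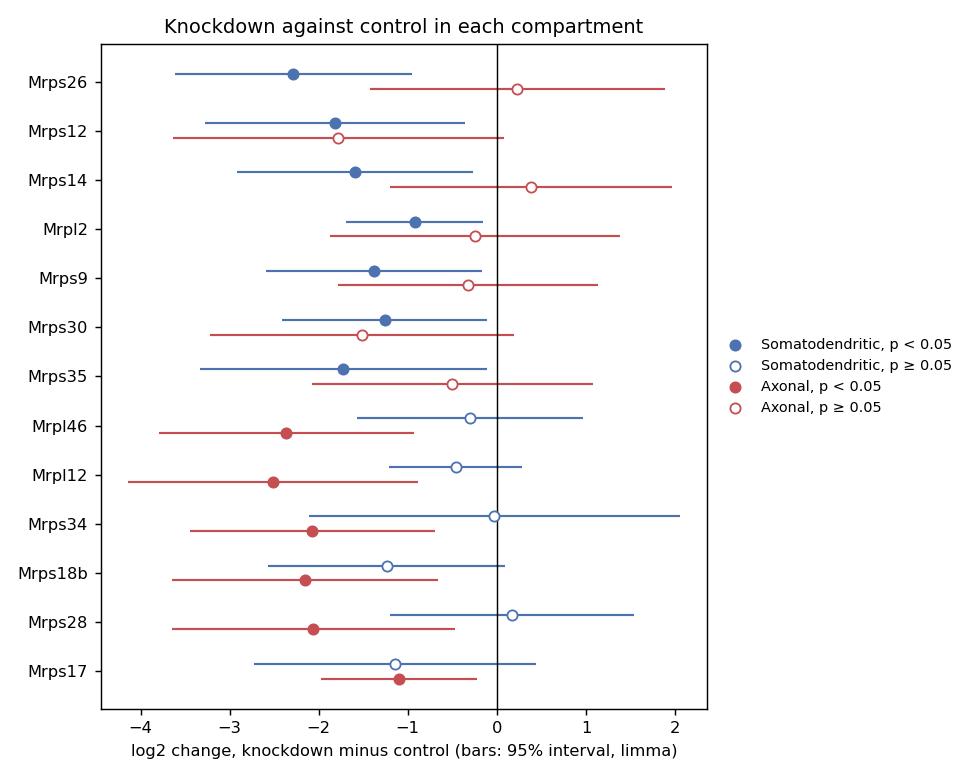
Log2 change with its 95% interval (limma) of the 13 members called at p under 0.05 in either compartment, shown for the somatodendritic (blue) and the axonal (red) side. Filled points have p under 0.05. Mrps26 is at -2.28 in the somatodendritic and above 0 in the axonal compartment, and Mrpl12 is at -0.46 and -2.51.

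**Figure D4:**
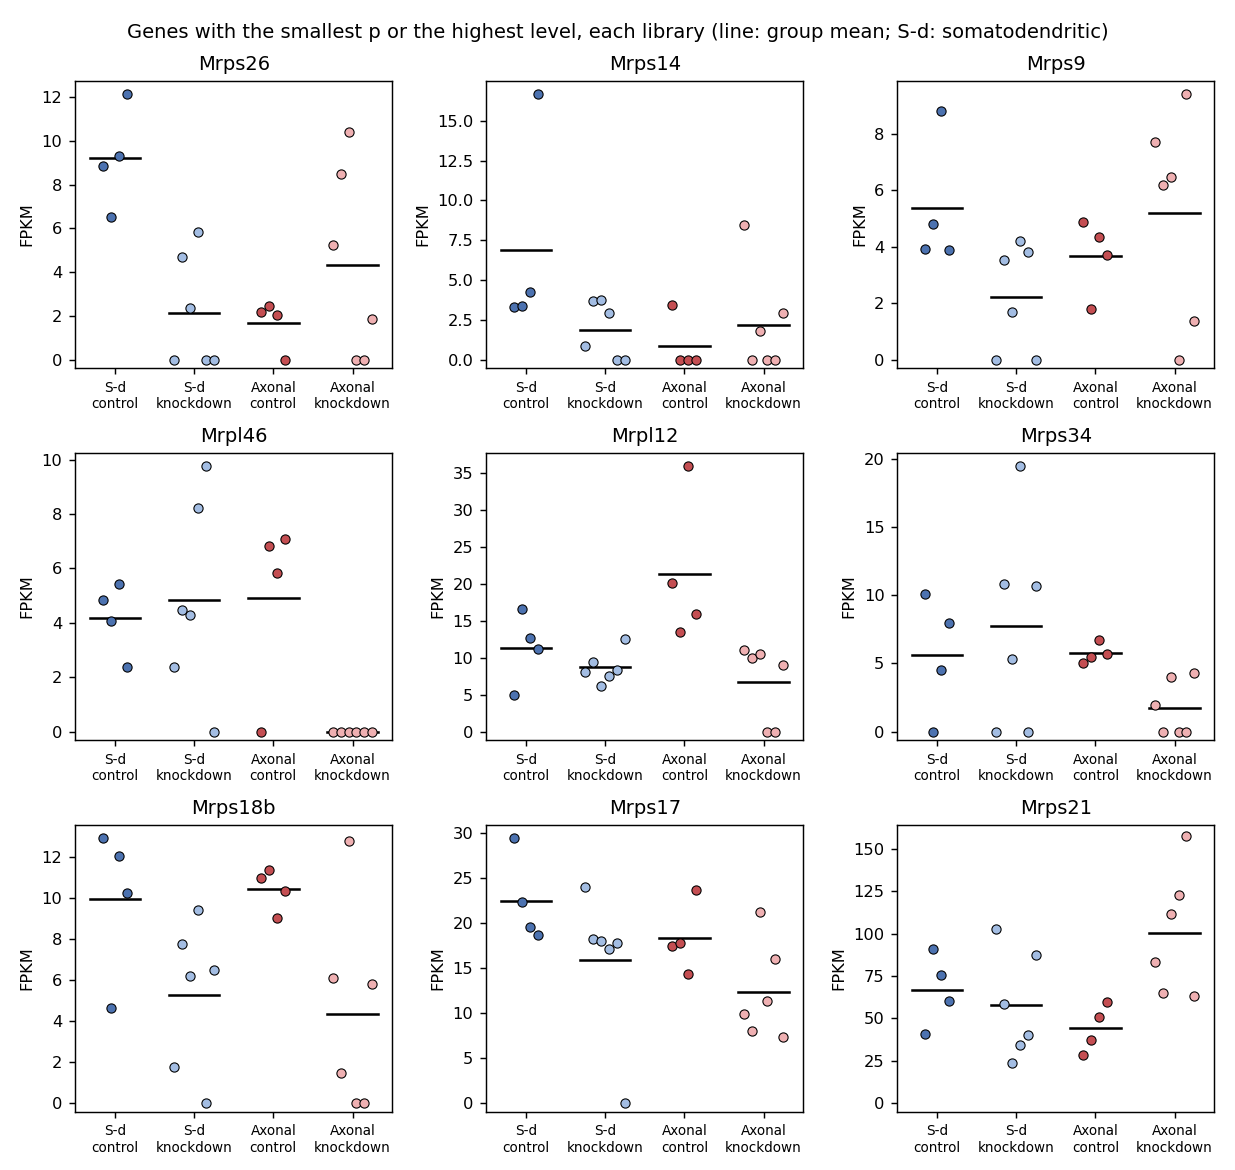
FPKM in each library for 8 genes lower after knockdown in either compartment and for Mrps21, the highest of the family. Each point is a library and the line is the group mean. Mrpl46 is at 0 in all 6 axonal knockdown libraries and Mrpl12 is lower in all 6 of them than in the 4 axonal controls.

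**Figure D5:**
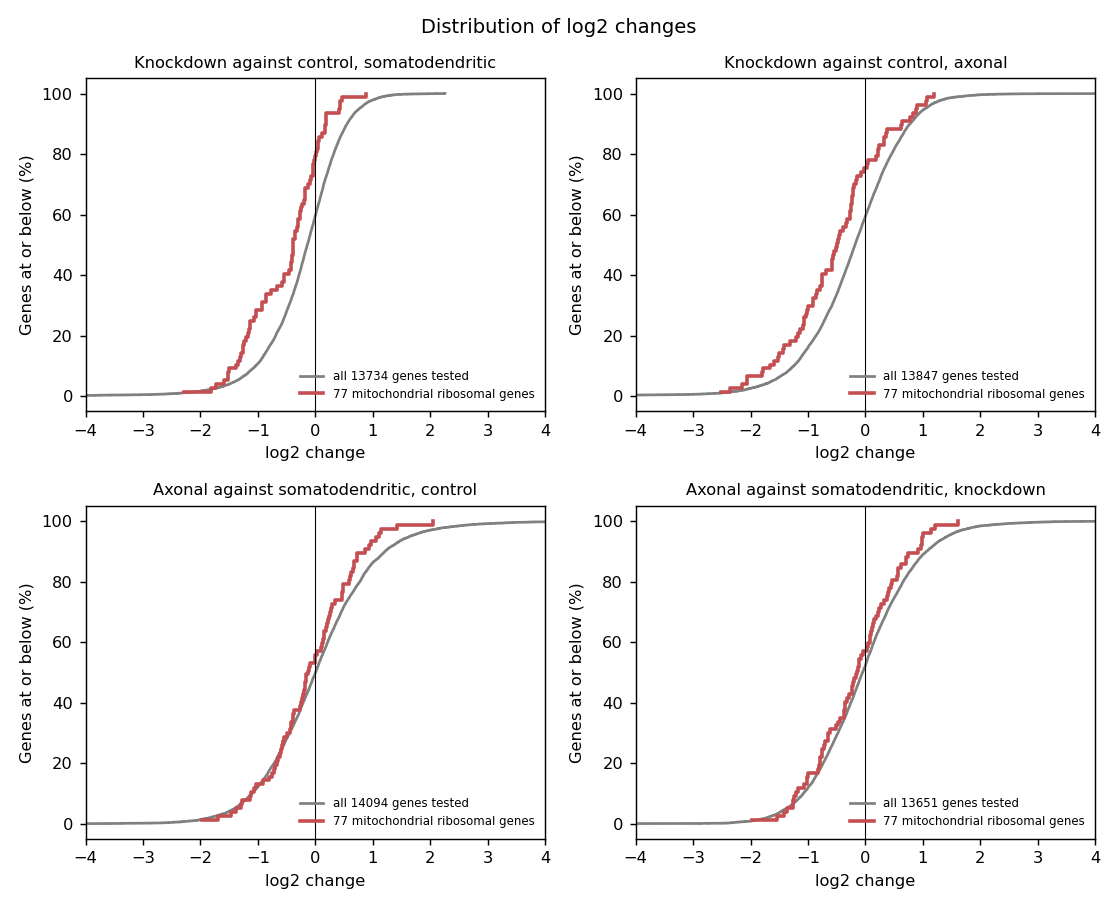
Cumulative share of genes by log2 change in the 4 comparisons, for the 77 genes (red) and for all genes tested (grey). In both knockdown comparisons the red curve lies to the left of the grey curve over most of its range, with medians of -0.38 against -0.14 and -0.50 against -0.18, and in the comparisons of compartments the curves lie closer together.

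The difference between compartments was tested as the knockdown effect in axons minus that on the somatodendritic side. In limma 3 genes were higher and 3 lower at an unadjusted p under 0.05, or 3.9% each, beside 2.55 and 2.36% of 12592 genes, and none passed an adjusted p under 0.05, against 0.0238% of all genes. Mrps26 differed by 2.51 ± 0.95 (SE; limma adjusted p = 0.975) and Mrpl12 by -2.05 ± 0.83 (SE; limma adjusted p = 0.988). Mrps18c, another homolog of bacterial S18, differed by 1.74 ± 0.54 (SE; limma adjusted p = 0.975) and Mrps36 by 2.06 ± 0.73 (SE; limma adjusted p = 0.975). Mrps28 and Mrpl46 differed by -2.22 and -2.06, and Mrpl46 kept an unadjusted p under 0.05 in 3 of 10 fits that each left out a replicate. At a relative depth of at least 0.5 the difference of Mrps26 was 3.77, with an unadjusted p under 0.05, and that of Mrpl12 was -0.84, without. The adjusted p of these 6 was 0.975 to 0.988.

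How do axons compare with the somatodendritic side in control motoneurons? With all 20 libraries on 1 scale, 3 genes of the family were higher in axons and 6 lower at an unadjusted p under 0.05, or 3.9 and 7.79%. The background over 14094 genes was 11.9% higher and 10.4% lower. None passed an adjusted p under 0.05 in limma on this scale, against 6.5% of all genes. The median log2 difference of the family was -0.13 and that of all genes 0.00496.

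Mrpl12 was the gene most clearly higher in axons, at a log2 difference of 1.42 ± 0.43 (SE; limma adjusted p = 0.0723). Its scaled means were 10.6 on the somatodendritic and 30.5 FPKM on the axonal side of control cultures. As deposited, the axonal controls at 13.4 and 15.9 FPKM lie below the highest somatodendritic control at 16.6 FPKM, and after scaling the groups do not overlap. Mrpl52, found in mitochondrial ribosomes only, and Mrps6, a homolog of bacterial S6, were higher with a limma adjusted p of 0.211 and 0.220. Leaving out 1 library at a time kept an unadjusted p under 0.05 for Mrpl52 in 3 and for Mrps6 in 2 of 8 fits, and the other alternatives kept it in 5 and 4 of 10, with a log2 difference of Mrps6 down to 0.16.

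Mrps26 was lower in control axons, with 2.18, 2.44, 2.03 and 0 FPKM against at least 6.53 FPKM in each somatodendritic control (log2 difference -1.69 ± 0.54, SE; limma adjusted p = 0.0880). Mrpl34, a homolog of bacterial L34, was at 48.9, 31.6, 34.4 and 17 FPKM on the somatodendritic and 14.3, 7.83, 3.18 and 8.11 FPKM on the axonal side (log2 difference -1.39, limma adjusted p = 0.0889). Its groups do not overlap as deposited and overlap after scaling. Mrps14 was listed at 0 in 3 of 4 axonal controls (log2 difference -1.97, limma adjusted p = 0.134). Mrpl50 and Mrps33, both found in mitochondrial ribosomes only, were lower with a limma adjusted p of 0.158 and 0.184, and Mrps18a with 0.212. Leaving out 1 library at a time kept an unadjusted p under 0.05 for Mrps33 in 3 and for Mrpl50 and Mrps18a in 5 of 8 fits, and the other alternatives kept it for Mrps18a in 6 of 10. With FPKM as deposited no gene was higher and 18 were lower, 9 of them at an adjusted p under 0.05 in limma. Over 13760 genes 5.34% were higher and 26% lower by the same rule, 12.4% were lower at an adjusted p under 0.05, and the median of all genes moved to -0.48, so the share of lower genes in the family is again near the background.

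Cytosolic ribosomal protein genes were measured in the same fits. Of 110 tested, 54 were higher and 0 lower in control axons at an unadjusted p under 0.05, with 25 at an adjusted p under 0.05 in limma and a median log2 difference of 0.68. On the somatodendritic side 2 of 109 were higher and 46 lower after knockdown, with a median of -0.58, and in axons 4 of 108 were higher and 22 lower, with a median of -0.39. With FPKM as deposited 19 of 108 were higher and 3 lower in control axons, with a median of 0.11. After knockdown the median on that scale was -0.37 on the somatodendritic side, and in axons the direction turned, with a median of 0.10, 17 genes higher and 7 lower. The difference between the families was not tested.

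Markers of other cells moved between the compartments of control cultures in both directions. The summed FPKM of 5 fibroblast markers was 1.43 to 11.9 on the somatodendritic side and 11.9 to 47.9 in axons, with 1 of 2 tested higher in axons and Lum listed at 0 in all axonal libraries. All 3 markers of dividing cells were higher in axons, 2 of them at an adjusted p under 0.05 in limma, with sums of 18.1 to 36.3 and 36.8 to 58.3 FPKM. Of 5 astroglia markers 2 were lower in axons, with sums of 123 to 199 and 50.3 to 209 FPKM. Of 5 markers of oligodendroglia and Schwann cells tested 2 were lower, with sums of 24.1 to 52.3 and 4.67 to 30.9 FPKM, and of 2 microglia markers tested 1 was lower, with sums of 2.58 to 7.73 FPKM and at most 1.38 FPKM in axons. Their part in the compartment differences was not tested.

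In knockdown cultures 4 genes of the family were higher and 3 lower in axons than on the somatodendritic side, or 5.19 and 3.9%, beside 8.17 and 8.8% of 13651 genes, and none passed an adjusted p under 0.05 in limma, against 1.48% of all genes. Mrps21 was at 63.3 to 157 FPKM with a median of 97.6 FPKM in axons and at 23.5 to 103 with a median of 49.5 FPKM on the somatodendritic side. Its log2 difference was 1.14 ± 0.37 (SE; limma adjusted p = 0.128), and the groups overlap. Mrps18c, Mrpl24 (a homolog of bacterial L24) and Mrps25 (found in mitochondrial ribosomes only) were higher with a limma adjusted p of 0.213, 0.244 and 0.260. Mrpl46 was lower, at 0 in all 6 axonal libraries (log2 difference -1.97 ± 0.52, SE; limma adjusted p = 0.0733), with 0 also in 1 somatodendritic knockdown library. Mrps15 and Mrpl36, homologs of bacterial S15 and L36, were lower with a limma adjusted p of 0.274 and 0.278. Leaving out 1 library at a time kept the unadjusted p of Mrps15 under 0.05 in 5 of 12 fits, of Mrpl36 in 4, of Mrps25 in 6, of Mrpl24 in 7 and of Mrps18c in 9. The other alternatives kept it for Mrps15 in 5 of 10 and for Mrpl36 in 4 of 9, and with a mitochondrially encoded share under 20% the log2 difference of Mrps15 turned to 0.0467.

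Markers of other cells also moved between the compartments of knockdown cultures. At an unadjusted p under 0.05 all 3 fibroblast markers tested were higher in axons, 1 of them at an adjusted p under 0.05 in limma, and 2 of 3 markers of dividing cells were higher. Both motoneuron markers tested were lower, as were 1 of 5 astroglia markers and 2 of 5 markers of oligodendroglia and Schwann cells, and neither of 2 microglia markers passed. The 3 nuclear RNAs had a median log2 difference of 1.31, with 1 higher at an adjusted p under 0.05 in limma. Their part in the calls of the family was not tested.

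Over the 5 comparisons 26 of the 77 genes had an unadjusted p under 0.05 in at least 1, or 33.8%, and 51 in none. Over the 12186 genes tested in all 5 the share was 41.5%. Among genes with known roles that did not pass in any comparison of scaled values, Mrps22, a small subunit protein found in mitochondrial ribosomes only, was at 20.2 ± 3.53 FPKM in somatodendritic control and 21.0 ± 9.62 in somatodendritic knockdown libraries (SD, n = 4 and 6). Mrps2, a homolog of bacterial S2, was at 15.6 ± 6.15 and 19.5 ± 4.57 FPKM. Mrps7, a homolog of bacterial S7 at the decoding site, was at 12.9 ± 1.69 and 13.5 ± 3.87 FPKM. Mrpl3, near the peptidyl transferase centre, was at 9.23 ± 3.43 and 17.5 ± 16.1 FPKM. Mrpl45, which holds the ribosome at the inner membrane, was at 6.77 ± 4.84 and 9.30 ± 4.80 FPKM, and Mrps27, a pentatricopeptide repeat protein, at 5.26 ± 2.39 and 3.21 ± 2.58 FPKM. In each of these the difference is smaller than the larger SD of the pair. With FPKM as deposited, Mrps22 was lower in control axons than on the somatodendritic side (log2 difference -1.21, limma adjusted p = 0.0288). The 95% interval of a log2 change after knockdown reached a median of 1.23 to either side on the somatodendritic side and 1.62 in axons, so that smaller differences were not detectable for a typical gene of the family.

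Genes that work with the mitochondrial ribosome were read in the same fits. Of 7 mitoribosomal protein genes without an Mrp symbol, none had p under 0.05 on the somatodendritic side. In axons Dap3, which binds GTP in the small subunit, was higher after knockdown (log2 change 1.35, limma adjusted p = 0.269) and Chchd1 lower (log2 change -2.07, limma adjusted p = 0.461). Of 15 mitochondrial translation factors, 2 were lower on the somatodendritic side, the release factor Mtrf1l (log2 change -1.42, limma adjusted p = 0.242) and the elongation factor Tsfm (log2 change -1.62, limma adjusted p = 0.307), and none of 14 passed in axons. Of 21 assembly and rRNA modification genes tested, 3 were lower on the somatodendritic side (Ddx28, Ngrn and Mterfd2) and none in axons.

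Of 17 mitochondrial tRNA synthetases 2 were higher and 3 lower at an unadjusted p under 0.05 on the somatodendritic side after knockdown, and of 16 tested in axons 1 was lower. Lars2, which charges leucine tRNA, was lower in both compartments, with a log2 change of -0.56 (limma adjusted p = 0.0206) on the somatodendritic side and -2.79 (limma adjusted p = 6.73e-05) in axons. The 17 synthetase genes summed to 4365 to 8172 FPKM in axonal control and 1014 to 1975 FPKM in axonal knockdown libraries. In axonal controls the 121 cytosolic ribosomal protein genes summed to 6223 to 8961 FPKM, an overlapping range. The paper reports a lower share of rRNA reads in axons after knockdown. Whether reads of other RNA enter the level of Lars2 was not tested. The rRNAs of the mitochondrial ribosome, mt-Rnr1 and mt-Rnr2, together reached 54181 to 64444 FPKM in somatodendritic control and 45315 to 64642 FPKM in somatodendritic knockdown libraries. In axons they ranged from 39243 to 176798 FPKM in control and from 35498 to 263445 FPKM in knockdown libraries, and the highest values are from the libraries of a high mitochondrially encoded share. On scaled values mt-Rnr1 was lower after somatodendritic knockdown at an unadjusted p under 0.05 (log2 change -0.42, limma adjusted p = 0.139), and mt-Rnr2 had a log2 change of -0.16 (limma adjusted p = 0.599) and a higher mean in knockdown as deposited. Neither passed after axonal knockdown. In axons against the somatodendritic side mt-Rnr2 was higher in control cultures (log2 difference 0.96, limma adjusted p = 0.130), and in knockdown cultures, where 4 of 6 axonal libraries have a high mitochondrially encoded share, both mt-Rnr1 (1.63, limma adjusted p = 0.107) and mt-Rnr2 (1.44, limma adjusted p = 0.165) were higher at an unadjusted p under 0.05.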

How the data were processed

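The authors deposited FPKM values of Cufflinks 2.2.1, with an interval for each value, for 20 libraries on GRCm38, and their notes also name FastQC 0.10.1. The aligner is not given in the sources used here. Values were scaled by the median of ratios, within a compartment for knockdown effects and over all 20 libraries between compartments. Genes with a mean of at least 1 scaled FPKM were tested on log2(scaled FPKM + 1) with limma 3.58.1 in R 4.3.3, and p-values were adjusted by Benjamini-Hochberg across the genes of each fit. All 77 genes of the family passed this filter. The difference between compartments used axonal minus somatodendritic values by replicate number. FPKM up to 0.001 were read as listed at 0. Implied fragments were computed from the interval as (2 FPKM / (upper bound - FPKM)) squared, which also holds uncertainty of assignment, so that values under 1 occur, and relative depth from these over 680 genes. FPKM give no whole reads, so no count model was used. The fits were also run on simulated data with 1 dispersion for all genes. Large changes were set there, only in genes above a level that some members do not reach. Such data do not show how well changes of low genes are found. Genes were named by the smallest p in each comparison, the highest and lowest levels and roles in the ribosome. The members and lists were chosen with earlier results of these data known. Alternatives were other scalings, pseudocounts, filters, weights, blocks and sets of libraries, of which the split by mitochondrially encoded share was chosen after seeing the data. Python 3.11.15, pandas 2.3.3 and matplotlib 3.10.9 were used for the tables and figures.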

Additional observations from a re-analysis of the deposited data

Results flagged for a closer look

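Of 58 groups of 4 to 6 values tested for a library far from the rest, 7 held one. Apart from the summed levels, the groups were those of genes with an unadjusted p under 0.05. The limit flags about 1 in 20 groups of normally distributed values. That rate does not hold for groups chosen in this way, and a group with 1 value above 0 and the rest at 0 is always flagged. These were Mrps14 in somatodendritic control 4 at 16.7 FPKM, Mrps14 in axonal control 1 at 3.42 FPKM with the other 3 at 0, and Mrpl46 in axonal control 1 and Mrps26 in axonal control 4, both at 0 FPKM. The others were Mrps34 in axonal control 3 at 6.71 FPKM, Mrps18a in axonal control 4 at 4.58 FPKM and Mrps6 in axonal control 1 at 10.9 FPKM.

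For 6 genes the effect of knockdown differed between compartments at an unadjusted limma p under 0.05, as axonal minus somatodendritic log2 change. The difference was 1.74 for Mrps18c, 2.06 for Mrps36, 2.51 for Mrps26, -2.22 for Mrps28, -2.05 for Mrpl12 and -2.06 for Mrpl46. None passed an adjusted p under 0.05.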

How the results depend on the processing

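The counts of genes with an unadjusted limma p under 0.05 changed with the processing as follows, each with the share of all genes called in the same fit in brackets, and the cause was not tested. On the somatodendritic side the 7 genes (13.9%) became 4 (12.5%) with a pseudocount of 0.1 and 11 (14.5%) with a pseudocount of 5. In axons the 6 genes (8.72%) became 10 (9.83%) with FPKM as deposited, 3 of 62 (9.55%) with a filter at a mean of 5 FPKM, 12 (15.2%) with all 20 libraries in 1 fit and 3 (7.16%) with a mitochondrially encoded share under 20%, where the knockdown libraries left are 3 and 1, the latter with Tardbp at 33.2 FPKM. Between compartments, the 9 genes of control cultures (22.3%) became 18 (31.3%) with FPKM as deposited, and the 7 of knockdown cultures (17%) became 4 (14.5%) with a pseudocount of 0.1 and 4 of 57 (20.9%) with a filter at a mean of 5 FPKM. An adjusted p under 0.05 was reached by some genes under some alternatives. After somatodendritic knockdown this was Mrps26 (pseudocount of 5). After axonal knockdown it was Mrpl46 (without axonal control 1), and Mrpl46 and Mrpl12 (all 20 libraries in 1 fit). Between control compartments it was Mrps26 (quantile normalization), and Mrps14, Mrps33 and Mrps16, the last of them higher in axons (without axonal control 1). FPKM as deposited added Mrpl49, Mrps18a, Mrps33, Mrps22, Mrpl34, Mrps26, Mrpl50, Mrps14 and Mrpl42 there, all lower in axons, beside 12.4% of all genes. Between knockdown compartments it was Mrpl46 (array weights, or without somatodendritic knockdown 6). The 6 genes whose knockdown effect differed between compartments (4.91%) became 3 (4.09%) with a pseudocount of 0.1, 3 of 58 (5.08%) with a filter at a mean of 5 FPKM and 10 (5.77%) with a mitochondrially encoded share under 20%. FPKM as deposited moved the share of higher genes among all genes called from 33.1 to 63.0% on the somatodendritic side and from 24.7 to 72.8% in axons after knockdown, from 53.3 to 17.1% and 48.1 to 30.4% between compartments of control and knockdown cultures, and from 51.9 to 82.0% for the difference of effects.

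Leaving out 1 library gave 4 to 10 genes on the somatodendritic side, with 4 (10.8%) without somatodendritic control 3, and 6 to 12 in axons, with 12 (6.43%) without axonal control 1 and 11 (9.92%) without axonal knockdown 5. Between compartments it gave 6 to 11 in control and 3 to 9 in knockdown cultures, with 3 (14.9%) without somatodendritic knockdown 4, 4 (15.5%) without somatodendritic knockdown 6 and 4 (16%) without axonal knockdown 2. For the difference of effects it gave 3 to 9, with 3 (3.9%) without control 3. The summed level in percent ranged over 63.7 to 73.3 for control axons against somatodendritic controls, 93.6 to 99.5 and 119 to 140 for knockdown against control in the somatodendritic and axonal compartments, and 85.6 to 97.2 for axons against the somatodendritic side after knockdown.

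The summed level of axonal in percent of somatodendritic controls became 104 scaled and 92.3 as a share of nuclear protein-coding FPKM. Somatodendritic knockdown in percent of control became 82.5 scaled, 82.8 as a share and 79.0 from the mean of log2(FPKM + 1). Axonal knockdown in percent of control became 85.9, 90.9 and 92.5 in the same order and 167 with a mitochondrially encoded share under 20%, and in percent of somatodendritic knockdown 118 with that share. The axonal knockdown libraries under 20% are 3 and 1, the latter with Tardbp at 33.2 FPKM. Of 690 alternative values for the single genes named as higher or lower, 533 kept direction and side of the threshold, 156 kept the direction only, and Mrps15 between compartments after knockdown turned to a log2 difference of 0.0467 with a mitochondrially encoded share under 20%.

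Libraries of 1 replicate number did not deviate together, with correlations of -0.06 to 0.09 over 8703 genes. Of them, 1 of 4, 1 of 6, 1 of 4 and 2 of 4 correlated best with their own number. Libraries of different numbers had correlations of -0.14 to 0.12. The values thus show no pairing, but noise at this depth could hide it, so shared cultures are not excluded. The difference of effects was computed from libraries of 1 number, and gave 6 genes, 3 higher and 3 lower. With the replicate number as a block, 11 genes (15.4%) had p under 0.05 on the somatodendritic side, 12 (9.82%) in axons, 8 (20.3%) between compartments in control and 7 (16%) in knockdown cultures, and without the replicate block the difference of effects also gave 6 (5.08%), again 3 higher and 3 lower. Depth limits these results, as the median gene of the family had 0 to 5.67 implied fragments per library.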

Other observations

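The genes whose level ran most like the mean log2 level of the family over the 20 libraries were Actr1a (Pearson r = 0.883), BC003331 (0.869), Snx25 (0.864), Purg (0.864) and Pdxk (0.864), of 12061 genes compared. This is a description. The libraries share their depth, with which the family's mean log2 level itself had r = 0.793.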
